A study of Mus musculus with 9 samples.

Results

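The genes described here are 10 components of the ubiquitin-linked signalling complex that forms beneath the TNF receptors: Tnfaip3, Tnip1, Tnip2, Birc2, Birc3, Traf1, Traf2, Traf3, Ripk1 and Cyld. They were chosen by name for their place in this pathway, with earlier results of these data known. All 10 were found among the 56289 genes of the deposited table. Counts set against all genes therefore describe a chosen list and are not an independent test. Gene expression was measured by poly(A) RNA sequencing in 9 libraries, 3 in each of 3 groups. The Con group was untreated, the TNF-α group received TNF-α (20 ng/ml) and the TNF-α+WBT group received the same TNF-α together with Wang Bi Tablet extract (WBT, 1.0 μg/ml), a Chinese herbal preparation for rheumatoid arthritis, for 24 h. The cultures were described as RAW264.7, a mouse macrophage-like line of BALB/c strain, and the labels write WBP for the extract. The TNF-α listed in the paper was a recombinant human protein, given here to mouse cells. There was no group with WBT alone, so WBT was compared only on top of TNF-α.

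The labelled cell type did not match its markers. Of 18 macrophage genes, Cd14 alone exceeded 1 FPKM (fragments counted on a transcript, divided by its length and by the size of the library) in all 9 libraries. Cd68, with means of 1.26 FPKM in Con, 1.26 in TNF-α and 1.36 in TNF-α+WBT, fell below 1 FPKM only in Con replicate 2 (0.939). Of the 18, 7, including Ptprc, Spi1, Itgam and Adgre1, were listed at 0 in all 9 libraries. Of 18 fibroblast genes 14 exceeded 1 FPKM in every library, and of 12 Schwann cell genes 8 did. The summed Schwann cell markers were 926 to 983 FPKM in Con, 751 to 813 in TNF-α and 818 to 847 in TNF-α+WBT, the summed fibroblast markers were 5451 to 5819, 5737 to 6029 and 5716 to 5830, and the summed macrophage markers 6.21 to 7.77, 7.65 to 8.63 and 7.34 to 9.02. With TNF-α, 5 of the 12 Schwann cell genes were called lower in limma, 2 of the 18 fibroblast genes higher and 2 lower, 2 of 12 genes used by every cell (B2m and Actb) higher, and none of the macrophage genes, of which 8 could be tested and 2 had an unadjusted p under 0.05. Over all genes tested, 2.94% were called higher and 1.93% lower, and 4088 of 25417 had an unadjusted p under 0.05. The part of these shifts in the results below was not tested. In bulk RNA, fewer cells of a type and less RNA per cell cannot be told apart. Depth is not stated with FPKM values. From the steps between low values it was estimated at 20215000 to 26260000 fragments in Con, 18950000 to 22625000 in TNF-α and 16925000 to 19730000 in TNF-α+WBT.

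When TNF binds its receptor, the adaptor TRADD gathers the kinase RIPK1, the adaptor TRAF2 and the ubiquitin ligases cIAP1 (Birc2) and cIAP2 (Birc3), and ubiquitin chains laid down on RIPK1 recruit the kinases that free NF-κB. The enzymes A20 (Tnfaip3) and CYLD remove or edit such chains, and ABIN1 (Tnip1) and ABIN2 (Tnip2) bind ubiquitin and A20. TRAF3, with TRAF2 and the cIAPs, keeps the kinase NIK low and so holds back the non-canonical NF-κB pathway. Tnfaip3, Tnip1, Birc3 and Traf1 are known NF-κB target genes in many cell types, which makes several members both parts and products of the pathway.

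RefSeq (GRCm38.p6) gave 13 promoters for the 10 genes, and the 250 bases before each start were searched on both strands for the κB consensus. It was found in 4 of the 13, those of Tnfaip3, Tnip1, Traf3 and Cyld, against 7.25% of 32851 promoters of the same length. These 4 windows are shown 5′ to 3′ on the strand of the gene with the κB matches in capitals, together with a downstream Tnfaip3 start that holds none, because a transcript from that start held 33.1% to 69.1% of the Tnfaip3 signal in the 9 libraries.
Tnfaip3, upstream start, chr10:19015411-19015660, minus strand: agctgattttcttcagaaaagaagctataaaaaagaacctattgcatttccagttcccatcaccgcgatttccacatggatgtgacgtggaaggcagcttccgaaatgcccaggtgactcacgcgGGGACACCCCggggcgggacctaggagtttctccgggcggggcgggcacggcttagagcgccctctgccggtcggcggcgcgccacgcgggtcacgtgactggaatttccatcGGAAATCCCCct
Tnfaip3, downstream start, chr10:19011964-19012213, minus strand: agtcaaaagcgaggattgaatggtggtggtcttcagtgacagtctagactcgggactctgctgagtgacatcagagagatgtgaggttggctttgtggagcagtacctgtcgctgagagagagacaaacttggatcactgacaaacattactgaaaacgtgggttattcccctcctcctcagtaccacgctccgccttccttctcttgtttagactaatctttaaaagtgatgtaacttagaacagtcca
Tnip1, chr11:54962941-54963190, minus strand: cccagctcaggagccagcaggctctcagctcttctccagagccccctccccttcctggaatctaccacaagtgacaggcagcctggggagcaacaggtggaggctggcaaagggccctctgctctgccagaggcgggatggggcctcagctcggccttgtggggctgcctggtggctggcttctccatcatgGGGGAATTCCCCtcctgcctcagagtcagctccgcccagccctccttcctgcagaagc
Traf3, chr12:111166120-111166369, plus strand: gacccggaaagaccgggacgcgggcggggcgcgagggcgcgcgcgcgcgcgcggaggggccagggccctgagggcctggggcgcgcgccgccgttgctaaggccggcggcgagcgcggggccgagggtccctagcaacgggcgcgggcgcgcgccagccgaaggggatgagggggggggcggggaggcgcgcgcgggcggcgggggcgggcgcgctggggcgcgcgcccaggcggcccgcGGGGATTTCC
Cyld, chr8:88696778-88697027, plus strand: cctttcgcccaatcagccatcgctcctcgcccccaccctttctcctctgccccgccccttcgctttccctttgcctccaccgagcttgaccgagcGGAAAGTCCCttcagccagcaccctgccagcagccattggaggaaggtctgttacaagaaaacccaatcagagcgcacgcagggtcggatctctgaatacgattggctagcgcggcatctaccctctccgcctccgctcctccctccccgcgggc
The upstream Tnfaip3 window held matches at 2 places, 125 to 116 and 12 to 3 bases before the start, and an AP-1 motif (TGANTCA) at 136 to 130, a motif present in 6.75% of all windows. The match of Tnip1 was a run of overlapping matches on both strands 58 to 47 bases before its start. Traf3 carried GGGGATTTCC in its last 10 bases, and the reverse strand of Tnfaip3 held the same 10 letters. In Cyld the match, GGGACTTTCC, lay on the reverse strand 155 to 146 bases before the start. No match was found in the windows of Birc2, Birc3, Traf1, Traf2, Tnip2 and Ripk1. For Birc2 and Traf1 the windows lie before starts at 7836806, 7837057 and 34961772, which are not those of their main transcripts. Birc2-202, with 83.9% of the Birc2 signal in Con, starts at 7835255. Traf1-207, with 87.2% of the Traf1 signal in TNF-α, starts at 34958163. The bases before these 2 starts were not searched. The Traf3 window lies before Traf3-203, with 2.1% of the Traf3 signal in Con, while Traf3-201, with 58.2%, starts at 111166463. Birc3-201, the only Birc3 transcript with signal in Con, starts at 7873024, and its window lies before 7873170. Both windows thus cover the bases before these main starts only in part. Cyld transcripts from 88702306 and 88705222 held 53.4% to 78.5% of its signal in the Con libraries, and no window before them was searched. A match is a run of letters and not a measured binding site.

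The 10 genes spanned a wide range of levels. FPKM values are per length and can be compared between genes. In Con, Tnip1 had the highest mean (17.3 FPKM ± 0.318, SD, n = 3), followed by Cyld (13.0 ± 1.54) and Birc2 (13.0 ± 0.317), whose libraries overlapped. Traf2 (8.01 ± 0.718), Tnip2 (7.86 ± 1.51) and Ripk1 (7.25 ± 0.458) came next, each overlapping its neighbour in this order, and then Traf3 (4.60 ± 0.553) and Tnfaip3 (4.31 ± 0.567), which also overlapped. Traf1 (0.0556 ± 0.0963) and Birc3 (0.0344 ± 0.0343) stood at the bottom of the order in every group. With TNF-α, Tnfaip3 moved from place 8 to place 4, where it overlapped both neighbours, and Tnip2 from place 5 to place 8. Tnip1 kept the top place in all 3 groups, apart from its neighbour each time.

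**Figure D1:**
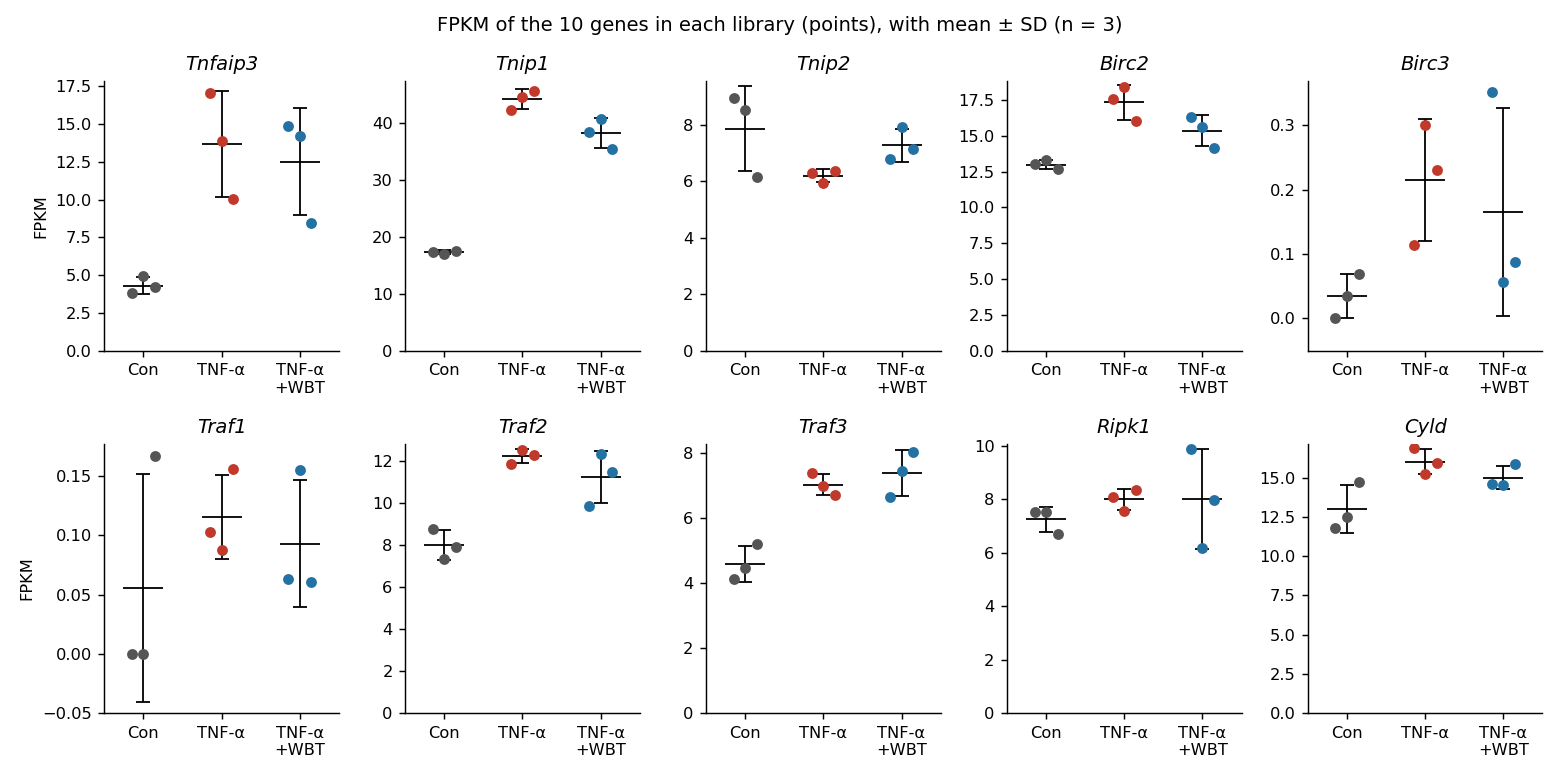
FPKM of each of the 10 genes in the 9 libraries, 1 panel per gene with its own axis; points are libraries and bars the mean ± SD of 3. Tnfaip3 and Tnip1 lie far above Con in both treated groups, and Birc3 and Traf1 stay below 0.4 FPKM in every library.

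The comparison of TNF-α with Con asks how the signalling components themselves changed in stimulated cultures. Of the 10 genes, 5 were called higher and none lower: Tnfaip3, Tnip1, Traf2, Traf3 and Birc2 (limma on log2(FPKM + 0.1), adjusted p under 0.05 over all genes tested). Of the 25417 genes tested, 2.94% were called higher and 1.93% lower. The median log2 fold change was 0.61 over the 10 genes and 0.00 over all genes tested. In 8 of the 10 genes every TNF-α library lay above every Con library, which 11.1% of all genes showed, and in none of them was it the reverse, which 10.2% showed. In the exact two-sided permutation test of 3 against 3 libraries a gene with separate groups reaches p = 0.1, the smallest value possible. By the thresholds of the study (a change of over 2-fold at an unadjusted p under 0.05), Tnfaip3, Tnip1 and Birc3 passed, against 1.37% of all genes in the higher and 1.05% in the lower direction.

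Tnfaip3 encodes A20, the ubiquitin-editing enzyme that restrains NF-κB signalling. Its levels were 3.79, 4.92 and 4.24 FPKM in the Con libraries, 17.1, 13.9 and 10.0 in TNF-α and 14.9, 14.2 and 8.47 in TNF-α+WBT. All 6 treated libraries lay above all Con libraries, replicate 3 was the lowest of each treated group, and the treated groups overlapped. The rise with TNF-α was 3.06-fold (95% interval 2.07 to 4.54). The gene lies on chromosome 10 and has 6 annotated transcripts, and Tnfaip3-202, from the downstream start shown above, held 33.1% to 67.7% of its signal in the Con libraries, 37.3% to 64.2% in TNF-α and 43.7% to 69.1% in TNF-α+WBT. It was not the most abundant transcript in every library, since Tnfaip3-201, from the upstream start, had 2.07 FPKM against its 1.40 in Con replicate 3. A retained-intron transcript, Tnfaip3-205, had 0.755, 5.08 and 5.07 FPKM with TNF-α, low in replicate 1 and high in the other two, and in replicate 3 it exceeded the 3.74 FPKM of Tnfaip3-202. When only the 4 protein-coding transcripts were summed, an alternative chosen after the data were seen, the 3 Con libraries had 2.96, 4.66 and 3.94 FPKM and those given TNF-α 15.9, 8.17 and 4.77. The groups still did not overlap, but the log2 fold change was 1.15 with an adjusted p of 0.197 in limma.

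Tnip1, on chromosome 11, encodes ABIN1, which brings A20 to ubiquitin chains. It was measured at 17.4, 16.9 and 17.5 FPKM in Con and at 42.2, 44.5 and 45.6 FPKM in TNF-α. The groups were far apart relative to their spread, and the rise was 2.54-fold (log2 1.35, SE 0.05, limma adjusted p = 3.49e-06), called under every alternative tried. The related Tnip2, which encodes ABIN2, was the only member whose fitted change was negative. It stood at 8.93, 8.51 and 6.14 FPKM in Con and 6.28, 5.93 and 6.36 in TNF-α, so Con replicate 3 lay within the TNF-α range. The log2 fold change was -0.32 (95% interval -0.63 to -0.01) with a limma adjusted p of 0.285, and without Con replicate 3 it was -0.49 with an adjusted p of 0.0222. Over all libraries left out in turn, the limma adjusted p ranged from 0.0222 to 0.543, and Tnip2 was called in 1 of 22 settings.

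The TRAF adaptors differed in level and in change. Traf2, the adaptor that carries the cIAPs to the receptor, rose from 8.77, 7.35 and 7.90 FPKM in Con to 11.9, 12.5 and 12.3 in TNF-α. Traf3, the adaptor that marks NIK for degradation, rose from 4.13, 4.45 and 5.21 FPKM to 7.37, 6.99 and 6.71. In neither gene did the groups overlap, and both log2 fold changes were 0.61, with SE 0.09 and limma adjusted p = 0.00628 for Traf2 and SE 0.10 and adjusted p = 0.0115 for Traf3. Traf1, a TRAF without a RING domain, was barely detected. It was listed at 0, 0 and 0.167 FPKM in Con and at 0.102, 0.088 and 0.156 in TNF-α, which corresponds to at most about 3.00 fragments per Con library and 4.87 to 10.0 per TNF-α library. The Traf1 groups overlapped and the limma adjusted p was 0.521, whereas limma-voom on the estimated fragments gave an adjusted p of 0.0350, so the call differed between the methods.

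Birc2 and Birc3 encode the ubiquitin ligases cIAP1 and cIAP2 and are neighbours on chromosome 9. Birc2 stood at 13.0, 13.3 and 12.7 FPKM in Con and at 17.6, 18.4 and 16.0 in TNF-α. The groups did not overlap, and the rise was small but larger than the spread (1.33-fold, 95% interval 1.19 to 1.48, limma adjusted p = 0.0103). Birc3 was close to the limit of detection, at 0, 0.0347 and 0.0686 FPKM in Con and 0.114, 0.301 and 0.230 in TNF-α. These values correspond to about 0, 2.01 and 3.70 fragments against 6.41, 14.7 and 11.6. The groups did not overlap, but the limma adjusted p was 0.196, and the fitted log2 fold change of 1.21 ranged from 0.23 to 2.80 with the pseudocount and the other settings. The genes are paralogs, and how reads matching both were divided is not given in the sources used here.

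Ripk1 encodes the kinase on which the ubiquitin chains are built. It was measured at 7.52, 7.51 and 6.72 FPKM in Con and 8.09, 7.58 and 8.36 in TNF-α, 2 narrowly separated ranges. The log2 fold change was 0.14 (95% interval -0.20 to 0.48) with a limma adjusted p of 0.734. Exons of Ripk1 overlap those of Gm17084 and, on the other strand, Serpinb6a, and the counting was not stated to use strand.

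Cyld, the deubiquitinase that trims the chains that A20 also acts on, lies on chromosome 8. The whole gene stood at 11.8, 12.5 and 14.7 FPKM in Con and 16.9, 15.3 and 15.9 in TNF-α, and did not pass the test (log2 fold change 0.30, 95% interval 0.11 to 0.50, limma adjusted p = 0.0971). Con replicate 3 was the highest Con library, and without it the adjusted p was 0.0210. Over all libraries left out in turn, the limma adjusted p ranged from 0.0210 to 0.243, and the gene was called in 1 of 22 settings. The transcripts were tested separately. Of 69 annotated transcripts of the 10 genes, 53 were above 0 FPKM in at least 3 libraries, and Cyld-206 alone was called, against 0.392% of 80149 transcripts called higher and 0.243% lower. It stood at 1.03, 1.50 and 0.714 FPKM in Con, 7.77, 7.74 and 7.82 in TNF-α and 6.05, 4.21 and 8.08 in TNF-α+WBT. Every treated library lay above every Con library, and the log2 fold change with TNF-α was 2.79 (SE 0.29, limma adjusted p = 0.00590). Its share of the gene's signal was 8.3% in Con, 48.5% in TNF-α and 40.8% in TNF-α+WBT. With the replicate number as a block the adjusted p was 0.0627.

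Cyld-206 starts at position 88697075, 47 bases after the start whose promoter is shown above. The other transcripts were therefore grouped by start after these values had been seen, and the sums are given without a test. The 5 transcripts from the upstream start, Cyld-206 among them, summed to 3.45, 3.66 and 2.08 FPKM in Con, 9.83, 8.62 and 9.57 in TNF-α and 8.12, 6.72 and 13.1 in TNF-α+WBT. The 3 transcripts from the starts at 88702306 and 88705222 summed to 6.28, 6.74 and 11.6 FPKM in Con, 3.92, 4.84 and 4.56 in TNF-α and 4.95, 5.67 and 0.407 in TNF-α+WBT. In each TNF-α library the upstream sum was the larger of the pair, and in each Con library the smaller. Replicate 3 of Con and of TNF-α+WBT had the most uneven divisions. Such divisions are assigned by the transcript assembler and varied widely for other members. Tnip1-204, chosen after its values were seen, had 0.0268, 14.3 and 17.1 FPKM with TNF-α, and Ripk1-201 was at 8.31 FPKM in TNF-α+WBT replicate 1 and at most 0.559 in the other libraries.

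**Figure D2:**
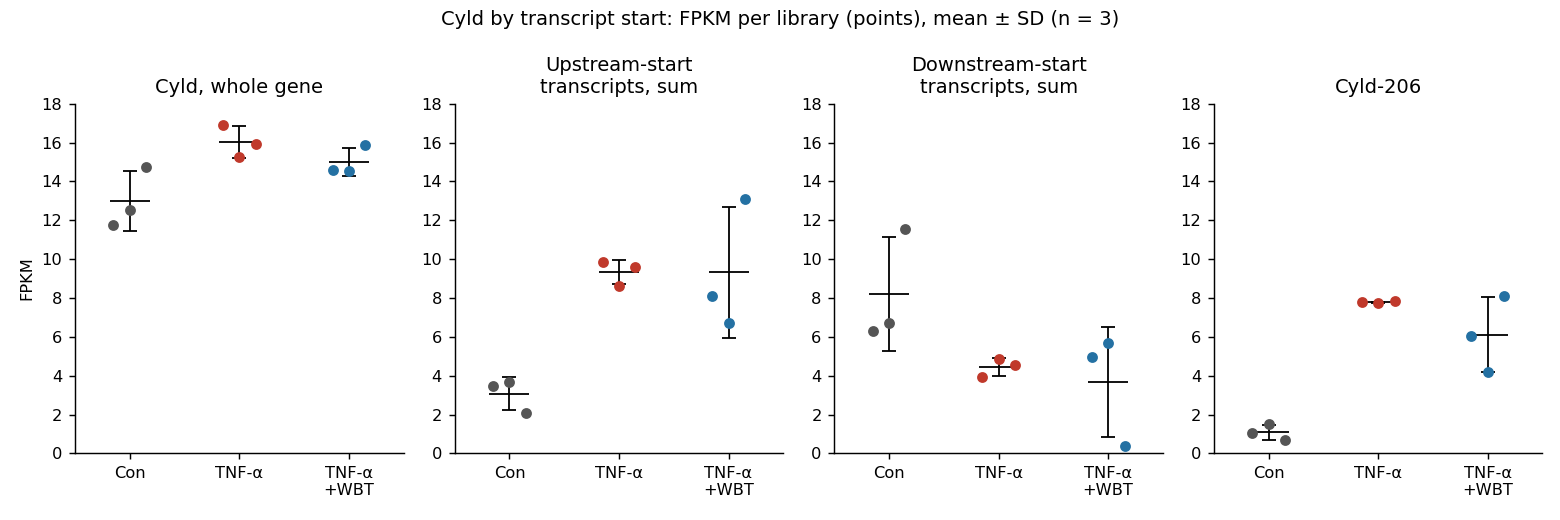
FPKM of Cyld as a whole, of its upstream-start and downstream-start transcripts summed, and of Cyld-206, in each library (points) with mean ± SD of 3. The upstream sums lie below 4 FPKM in Con and above 6 in all treated libraries; the grouping by start was made after the values were seen.

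The comparison of TNF-α+WBT with TNF-α asks whether the extract altered these components in stimulated cultures. None of the 10 genes was called by limma at an adjusted p under 0.05, against 1 of 25417 genes (0.00393% called higher and 0.0% lower), and none passed the thresholds of the study, which 0.5% of genes passed in the higher and 0.618% in the lower direction. At an unadjusted p under 0.05 there were 2, Tnip1 and Birc2, where 6.31% of all genes were. The median log2 fold change was -0.13 over the 10 genes and 0.00 over all genes. Of the 10 fitted changes 8 were negative, as were 12882 of the 25417 genes tested. This comparison shares its TNF-α libraries with that of TNF-α and Con, so these signs are not independent of the rises there. Among the 8, Birc3 and Traf1 were close to the limit of detection, and Tnfaip3 and Ripk1 changed sign under some alternatives. No other setting tried called any of the 10 genes.

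Tnip1 stood at 38.3, 40.7 and 35.4 FPKM with TNF-α+WBT, all below the lowest TNF-α library at 42.2. The log2 fold change was -0.21 (95% interval -0.34 to -0.09, unadjusted p = 0.00449, limma adjusted p = 0.559). Birc2, at 16.3, 15.6 and 14.2 FPKM, overlapped TNF-α and had a log2 fold change of -0.17 (95% interval -0.33 to -0.02, limma adjusted p = 0.759). Tnip2 went the other way, with all of its TNF-α+WBT libraries (6.77, 7.91 and 7.13 FPKM) above all TNF-α libraries, a log2 fold change of 0.23 (95% interval -0.08 to 0.53) and a limma adjusted p of 0.839. Groups of this comparison lay apart in 5.39% of all genes in the higher and 5.61% in the lower direction.

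For the other members the intervals state how large a change the data allow. Tnfaip3 had a log2 fold change of -0.14 (95% interval -0.70 to 0.43), wider than that of any other member above 1 FPKM. Traf2, at 9.89, 12.3 and 11.5 FPKM, had -0.13 (95% interval -0.34 to 0.09), and Traf3, at 6.64, 7.45 and 8.03 FPKM, had 0.07 (95% interval -0.17 to 0.30). Cyld had -0.09 (95% interval -0.29 to 0.10). Ripk1 spread more with TNF-α+WBT than in the other groups, at 9.89, 6.17 and 7.97 FPKM, and had -0.02 (95% interval -0.36 to 0.31). Birc3, at 0.351, 0.0567 and 0.0871 FPKM, and Traf1, at 0.0636, 0.155 and 0.0605 FPKM, were too low for a change to be resolved, with intervals of -1.35 to 0.62 and -1.08 to 0.72. None of the 53 transcripts of the 10 genes was called, against 0.0175% of all transcripts called higher and 0.025% lower. Of the 53, 5 had an unadjusted p under 0.05 in limma. The share of all transcripts at that threshold is not given here, so the count is not read as a result.

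**Figure D3:**
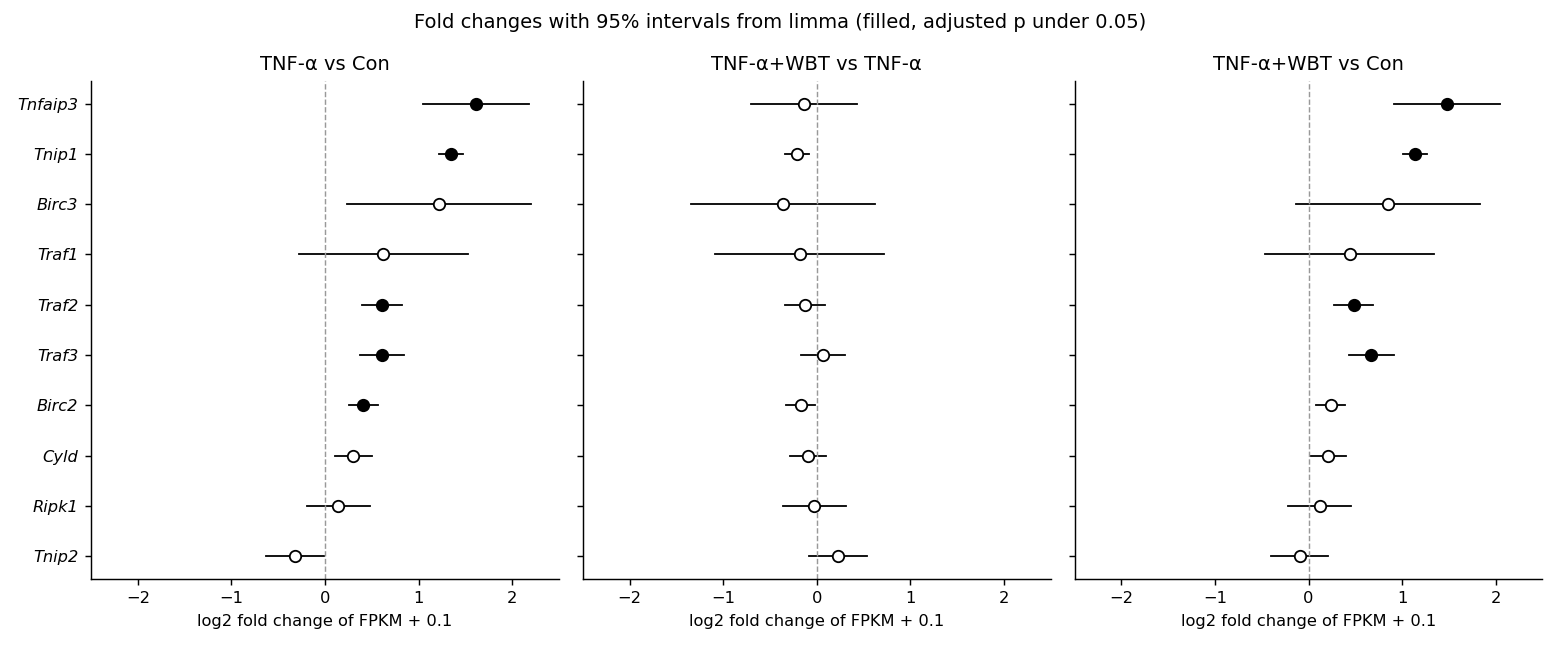
Log2 fold changes of FPKM + 0.1 for the 10 genes in the 3 comparisons, with 95% intervals from limma; filled points have an adjusted p under 0.05. There are 5 filled points in TNF-α vs Con, none in TNF-α+WBT vs TNF-α and 4 in TNF-α+WBT vs Con.

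In the comparison of TNF-α+WBT with Con, which shares its libraries with both others, Tnfaip3, Tnip1, Traf3 and Traf2 were called higher and no member lower, against 2.31% of all genes called higher and 1.4% lower. Tnip1 was 2.20-fold higher (limma adjusted p = 1.37e-05) and Traf3 1.59-fold higher (limma adjusted p = 0.00867). Tnfaip3 was 2.79-fold higher (95% interval 1.88 to 4.14) with a limma adjusted p of 0.0134. Its adjusted p lay between 0.0530 and 0.0575 when Con replicate 1, Con replicate 3, TNF-α+WBT replicate 1 or TNF-α+WBT replicate 2 was left out, and was 0.143 when only protein-coding transcripts were summed. Traf2 was 1.40-fold higher with a limma adjusted p of 0.0249, and without Con replicate 2 or 3 or TNF-α+WBT replicate 2 or 3 its adjusted p lay between 0.0808 and 0.0882. The Traf2 call was also lost without the trend (adjusted p = 0.0648), with only the 2 groups compared (0.0897) and with the replicate number as a block (0.0788). Birc2 was 1.18-fold higher (limma adjusted p = 0.124), with no overlap between the groups. In all, 5 of the 10 genes had TNF-α+WBT libraries wholly above Con, against 10.2% of all genes, and none lay wholly below it, against 9.25%. By the thresholds of the study, Tnfaip3 and Tnip1 passed, against 1.28% of all genes in the higher and 1.02% in the lower direction. Cyld-206 was again the only transcript called (log2 fold change 2.40, SE 0.29, limma adjusted p = 0.0141), against 0.268% of all transcripts called higher and 0.187% lower. Its adjusted p was 0.0590 without Con replicate 1, 0.0671 without TNF-α+WBT replicate 1 and 0.115 with the replicate number as a block.

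A further 47 genes of the same pathway, also chosen with earlier results of these data known, were examined as a list. With TNF-α, 8 of the 47 were called higher by limma and none lower, against 2.94% of all genes called higher and 1.93% lower. The median log2 fold change was 0.10 against 0.00 over all genes. By the thresholds of the study, 1 of the 47 passed in the higher and 1 in the lower direction, against 1.37% and 1.05% of all genes. Both were among the ubiquitin enzymes and their partners. Among receptors and adaptors 3 of 10 were called higher, Traf4, Traf5 and Traf7. Traf4, at 42.6, 38.8 and 42.5 FPKM in Con, reached 59.8, 53.8 and 53.6 with TNF-α (log2 fold change 0.43, SE 0.05, limma adjusted p = 0.00251). Among ubiquitin enzymes and their partners only Spata2, the adaptor that links CYLD to the linear ubiquitin ligase complex, was called of 19. It stood at 5.32, 5.88 and 5.77 FPKM in Con, 8.73, 9.32 and 11.2 in TNF-α and 10.7, 9.69 and 8.75 in TNF-α+WBT. Both treated groups lay above Con, and the log2 fold change with TNF-α was 0.77 (SE 0.11, limma adjusted p = 0.00429). Ikbke and Chuk were called higher among 14 kinases and partners, and Casp8 and Mlkl among 4 cell death genes. The count fell to 4 without Con replicate 1, 3 without Con replicate 3, 5 without TNF-α replicate 1 or replicate 2, and 4 without TNF-α replicate 3 or TNF-α+WBT replicate 1.

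With WBT added to TNF-α none of the 47 was called by limma, against 1 of all 25417 genes. Of the 47, 7 had an unadjusted p under 0.05, against 6.31% of all genes. Limma-voom on the estimated fragments called none, and 1 was called by limma without TNF-α replicate 2. Against Con, Traf7, Spata2 and Traf4 were called higher in TNF-α+WBT, 3 of 47 where 2.31% of all genes were. Traf7, a RING-type TRAF family member, was at 36.5, 39.0 and 37.8 FPKM in Con, 41.7, 43.6 and 43.0 in TNF-α and 48.0, 46.9 and 49.8 in TNF-α+WBT. These 3 ranges did not overlap, with log2 fold changes of 0.18 for TNF-α vs Con (limma adjusted p = 0.0373) and 0.17 for TNF-α+WBT vs TNF-α (limma adjusted p = 0.442). Xiap, an IAP related to Birc2 and Birc3 that was singled out after its values were seen, stood at 13.0, 15.3 and 15.0 FPKM in Con, 5.25, 12.6 and 5.06 in TNF-α and 12.5, 12.8 and 15.0 in TNF-α+WBT. All 3 TNF-α libraries lay below all Con libraries, as in 10.2% of all genes, but replicate 2 only narrowly. Its limma adjusted p was 0.113 for TNF-α vs Con and 0.678 for TNF-α+WBT vs TNF-α.

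**Figure D4:**
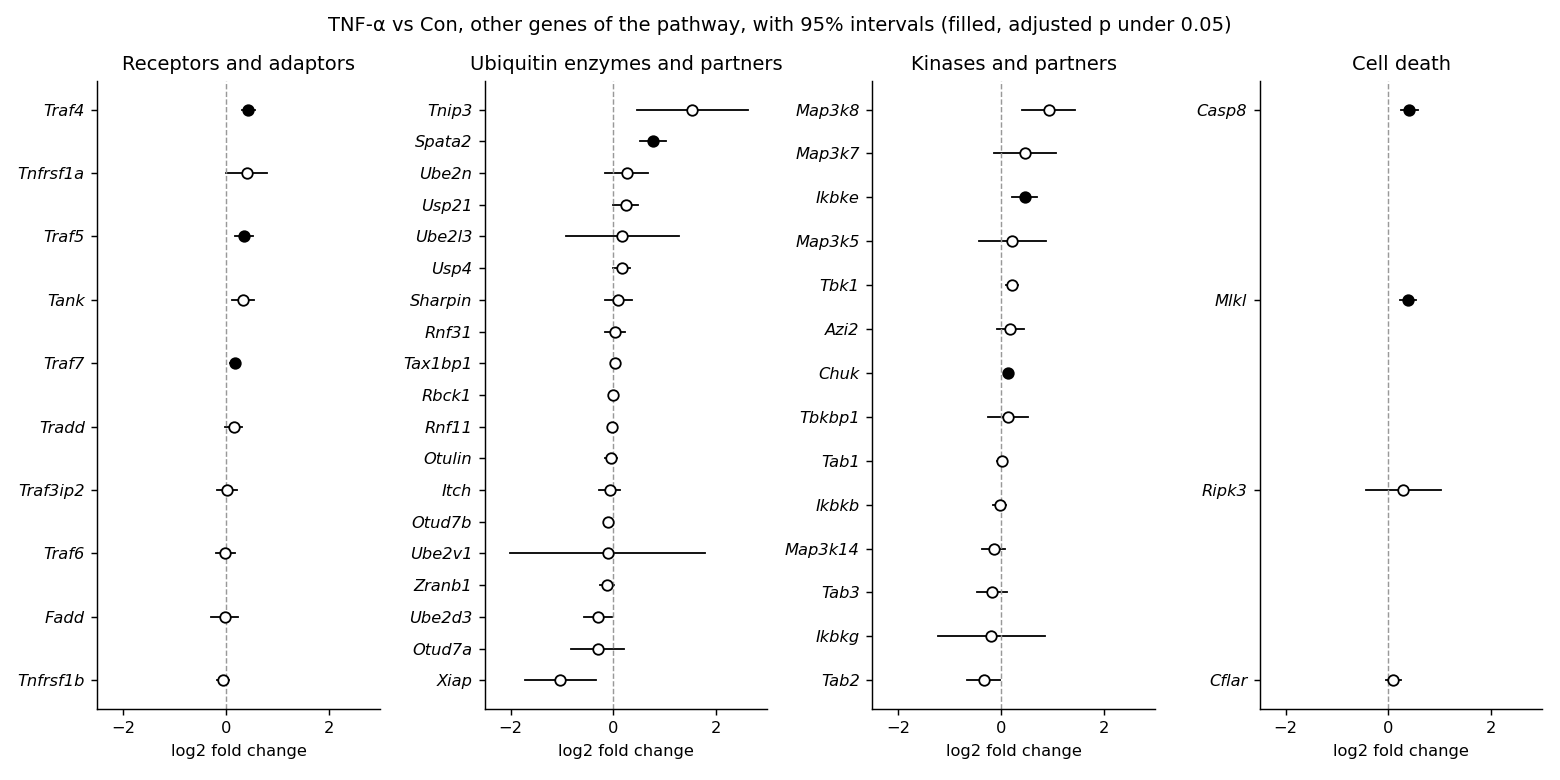
Log2 fold changes of FPKM + 0.1 in TNF-α vs Con for 47 other genes of the pathway in 4 classes, with 95% intervals from limma; filled points have an adjusted p under 0.05. The 8 filled points all lie to the right of 0, and Spata2 is the farthest of them.

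The NF-κB and IκB genes, the transcription factors downstream of these components and their inhibitors, moved with the same treatment. This list, too, was chosen with earlier results of these data known. With TNF-α, 9 of 10 rose, all but Rela, where 2.94% of all genes were called higher, and the median log2 fold change was 0.93 against 0.00 over all genes. Nfkbia, the inhibitor IκBα, stood at 25.2, 26.0 and 22.8 FPKM in Con, 78.7, 81.7 and 80.4 in TNF-α and 69.3, 72.3 and 68.8 in TNF-α+WBT. Its groups did not overlap in any comparison, and the log2 fold change was 1.70 with TNF-α (SE 0.05, limma adjusted p = 6.36e-07) and -0.19 on adding WBT (limma adjusted p = 0.559). Relb, a subunit of the non-canonical pathway that TRAF3 holds back, had a log2 fold change of 2.15 with TNF-α (SE 0.12, limma adjusted p = 1.65e-05), and Nfkb2, its usual partner, 1.23 (SE 0.06, limma adjusted p = 6.22e-06). None of the 10 was called between TNF-α+WBT and TNF-α in limma or limma-voom. All 10 fitted changes were negative, with a median log2 fold change of -0.14, while 12882 of the 25417 genes tested were negative. The same TNF-α libraries gave the rises against Con, so these signs are not independent of the rises. In limma 4 of the 10 had an unadjusted p under 0.05, against 6.31% of all genes. In limma-voom 6 of the 10 did, and the share of all genes in that setting is not given here.

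Across the 9 libraries, the genes whose log2(FPKM + 0.1) was most like that of Tnfaip3 among 12686 genes averaging 1 FPKM or more were Vps35 (Pearson r = 0.986), Gm16576 (r = 0.975), H2-T23 (r = 0.974), Erap1 (r = 0.973) and Gm10033 (r = 0.973). Among the members, Tnip1 (r = 0.930) and Birc2 (r = 0.922) were nearest and Tnip2 (r = -0.488) farthest. These values describe 9 libraries that share their 3 groups. The size of the changes behind them differed, since Vps35 went from 60.5 FPKM ± 0.217 (SD, n = 3) in Con to 63.5 ± 0.461 in TNF-α, and H2-T23, an MHC class I gene, from 9.78 ± 1.20 to 19.1 ± 2.61.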

How the data were processed

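Poly(A) RNA was sequenced as paired ends in 9 libraries, 3 per group, which the paper calls biological replicates. The authors deposited FPKM per gene and per transcript, made with HISAT2, StringTie and Ballgown. Versions, genome build and annotation are not given in the sources used here. Symbols and coordinates came from GENCODE M21 (GRCm38), which matched 55144 of 56289 gene IDs, and promoters from RefSeq. All columns were mapped to libraries by name, and no libraries were identical.

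Testing used the 25417 genes with a value over 0 FPKM in 3 or more libraries and limma 3.58.1 (R 4.3.3, eBayes with trend) on log2(FPKM + 0.1), in 1 model of all 9 libraries, with Benjamini-Hochberg adjustment over all genes; transcripts likewise. Fold changes are on this scale, which understates those of low genes. The code was tested on simulated data. The 10 genes and all lists were chosen with earlier results of these data known. Named beside them were called genes of the pathway and NF-κB lists, at most 10 with values by smallest p, and the 5 genes most like Tnfaip3.

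Depth came from the FPKM steps of genes with a single transcript over 1000 bases; 51.0% to 57.3% of low values lay within 0.1 of a whole fragment, where 20% would by chance, and for some libraries double the depth was also possible, so estimated fragments are approximate and cover counting error only. Alternatives were other pseudocounts (1 and 0.01), filters, normalizations, models, transcript sums, a replicate block, limma-voom on estimated fragments and leaving out each library. Tables were handled in pandas 2.3.3 and numpy 2.4.6 under Python 3.11.15, and figures drawn with matplotlib 3.10.9.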

Additional observations from a re-analysis of the deposited data

How the results depend on the processing

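Of the calls named above, those of Tnip1, Traf2, Traf3 and Birc2 with TNF-α, and of Tnip1 and Traf3 with TNF-α+WBT against Con, held under every alternative tried, and the call of Tnfaip3 with TNF-α under all but the sum of protein-coding transcripts (log2 1.15). Against Con, the calls with TNF-α+WBT were lost for Tnfaip3 with that sum (adjusted p = 0.143 in limma), and for Traf2 without trend, with only the 2 groups compared and with the replicate block (0.0648 to 0.0897). The number of members called with TNF-α ranged from 5 to 7 when 1 library was left out, and with TNF-α+WBT against Con from 2 to 4. The count of 8 pathway genes with TNF-α became 4 without trend, with median centring or with protein-coding transcripts only, 5 with quantile normalization, with only the 2 groups compared or with the replicate block, and 3 to 7 when 1 library was left out. For TNF-α+WBT against TNF-α it was 0 to 1 when 1 library was left out, and against Con it became 7 with a mean of at least 1 FPKM and 5 with limma-voom. Limma-voom put 4 members past the thresholds of the study for TNF-α+WBT against Con.

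Same-numbered libraries did not deviate together (correlations of -0.067 to 0.095, against -0.105 to 0.097 for other pairs). The labels state no pairing, and whether same-numbered libraries shared a batch was not tested. With the replicate block, member transcripts called were 0 for TNF-α and 0 for TNF-α+WBT against Con, and the members called were 5 and 3. Member transcripts called for TNF-α+WBT against Con were also 0 with only the 2 groups compared and 0 to 1 when 1 library was left out.

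The sign turned in changes that were not called. For TNF-α+WBT vs TNF-α, Tnfaip3 was 0.22 with protein-coding transcripts only and -0.34 to 0.12 when 1 library was left out (0.04 without TNF-α replicate 1, 0.12 without TNF-α+WBT replicate 3), Ripk1 0.11 and -0.19 to 0.15 (0.0060 without TNF-α replicate 3), and Traf3 -0.028 with limma-voom. For TNF-α+WBT vs Con, Tnip2 was 0.10 with protein-coding transcripts only and -0.26 to 0.0051 when 1 library was left out, and Ripk1 -0.11 with limma-voom and -0.046 to 0.29. The causes were not tested. Birc3 and Traf1 rest on few estimated fragments.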
